A study of Mus musculus with 6 samples.

Results

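The genes described here are those of the 4 mouse HOX clusters, A to D, chosen by a gene symbol made of Hox, the cluster letter and a paralogue number, which leaves out the antisense genes. The reference holds 39 such genes, and 38 of them had a row among the 37991 genes of the deposited counts: 11 of cluster A on chromosome 6, 10 of cluster B on chromosome 11, 9 of cluster C on chromosome 15 and 8 of cluster D on chromosome 2. Hoxd4 was not matched to a row and was not analysed here. The counts come from 3 male and 3 female libraries of mesenchyme from the Müllerian duct, the embryonic tube that becomes oviduct, uterus and upper vagina in females and regresses in males under anti-Müllerian hormone. Embryos of both sexes were at embryonic day 14.5, on a mixed C57BL/6J x 129/SvEv background, and both carried Amhr2Cre/+ and R26R YFP/+, so every library is heterozygous for a Cre allele driven from the Amhr2 locus and for the reporter. Sorting was on YFP, a permanent label of any cell in which that Cre had been active, and each library pooled cells of 2 to 7 embryos. The comparison asked how male mesenchyme, exposed to the hormone, differed from female mesenchyme.

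HOX genes encode homeodomain transcription factors that give cells along the body axis and the limbs their regional identity. Within a cluster the genes lie in the order in which they are used, low paralogue numbers toward the head and high numbers toward the tail, and genes with the same number in different clusters are paralogues with related sequence and often overlapping roles. In the mouse female tract Hoxa9, Hoxa10, Hoxa11 and Hoxa13 are known for successive domains from oviduct to vagina.

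Promoter sequences of 4 genes are shown first. Transcripts of Hoxb4 and Hoxb8 stood above their female level in every male library. Those of Hoxa10 and Hoxa11 stood below it, as 2 of 33 tested HOX genes did (7.27% of all genes tested). The windows run from 250 bases before to 50 after an annotated start, 5′ to 3′ on the gene's strand, from RefSeq on GRCm38.p6, and capitals mark matches to any of 5 short motifs on either strand. The motifs were TGATTNAT (the joint PBX and HOX motif), TTTATNG (a motif of posterior HOX and caudal proteins), TAATTA (the homeodomain core), TATAAA and CCAAT, and matches to TATAAA may overlap those to TTTATNG.
Hoxb4, chr11:96318017-96318316, plus strand: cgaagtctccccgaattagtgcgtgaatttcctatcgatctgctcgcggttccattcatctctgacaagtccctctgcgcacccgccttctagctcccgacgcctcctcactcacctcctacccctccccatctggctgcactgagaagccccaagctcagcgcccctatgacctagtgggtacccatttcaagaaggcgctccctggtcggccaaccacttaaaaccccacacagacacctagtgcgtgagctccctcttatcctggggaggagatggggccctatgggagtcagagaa
Hoxb8, chr11:96281655-96281954, plus strand: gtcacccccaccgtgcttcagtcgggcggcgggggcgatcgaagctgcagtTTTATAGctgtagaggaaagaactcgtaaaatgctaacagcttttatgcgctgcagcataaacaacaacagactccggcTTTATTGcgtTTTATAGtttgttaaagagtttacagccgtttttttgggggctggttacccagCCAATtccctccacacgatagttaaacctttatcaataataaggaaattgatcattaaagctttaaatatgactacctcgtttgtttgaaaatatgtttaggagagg
Hoxa10, chr6:52234890-52235189, minus strand: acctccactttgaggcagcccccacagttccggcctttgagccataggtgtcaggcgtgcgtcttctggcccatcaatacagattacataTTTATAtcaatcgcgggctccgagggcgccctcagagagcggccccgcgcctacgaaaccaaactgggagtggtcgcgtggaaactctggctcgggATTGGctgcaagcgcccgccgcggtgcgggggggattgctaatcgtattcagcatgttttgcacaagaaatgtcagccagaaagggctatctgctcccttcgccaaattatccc
Hoxa11, chr6:52245761-52246060, minus strand: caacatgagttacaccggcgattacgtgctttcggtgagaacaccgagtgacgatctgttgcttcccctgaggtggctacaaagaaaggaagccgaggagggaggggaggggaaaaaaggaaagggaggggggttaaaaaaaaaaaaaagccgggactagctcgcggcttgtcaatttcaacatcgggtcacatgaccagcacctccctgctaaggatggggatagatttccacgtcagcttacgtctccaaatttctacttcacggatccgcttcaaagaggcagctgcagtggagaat

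The Hoxb8 window held 3 matches to TTTATNG, 2 of them overlapping a match to TATAAA, and 1 to CCAAT. The Hoxa10 window held 1 match to TATAAA and 1 to CCAAT, and a second annotated window of Hoxa10, chr6:52240805-52241104 and not printed, held none of the 5. Likewise the Hoxb4 and Hoxa11 windows held none. Among all 32851 windows of this length, 10.9% held TTTATNG, 13.6% TATAAA, 37.4% CCAAT, 5.29% TAATTA and 3.22% TGATTNAT. Of the 24 windows of 22 HOX genes in the table, 2 held TTTATNG, 4 TATAAA, 15 CCAAT, 2 TAATTA and 2 TGATTNAT. A match is a match of letters only.

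The libraries held 22511872 to 24749859 counts in genes. Duct mesenchyme markers (Amhr2, Wt1, Emx2, Nr2f2, Pdgfra, Pdgfrb, Col1a1, Col3a1 and Vim) were present in all libraries, with a sum of 6591 to 7707 CPM in male and 5302 to 7574 CPM in female libraries. CPM, the usual unit of counts scaled to the library total, was taken here with TMM factors. Libraries of replicate 1 and replicate 2 stood apart within each sex: the first principal component of log2 CPM held 65.6% of the variance, and the deviations from the sex means correlated across genes at 0.93 between the replicate 1 libraries of the sexes, 0.85 between the replicate 2 libraries and -0.07 between the replicate 3 libraries (genes are not independent replicates). Results below are therefore given for every library.

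At least 1 count was found for 37 of the 38 HOX genes. The summed HOX level was 915.5, 702.6 and 946.4 CPM in male replicates 1 to 3, against 953.0, 896.3 and 1069 CPM in female replicates 1 to 3, so the sexes overlapped in their total. The clusters did not share this. HOXB summed to 128.0, 127.2 and 160.3 CPM in male libraries, against 49.3, 43.7 and 49.7 CPM in female libraries. HOXA summed to 408.2, 262.0 and 378.4 CPM in male libraries, against 527.2, 501.9 and 625.4 CPM in female libraries. Neither pair of groups overlapped, with HOXB above and HOXA below the female level in male libraries. The largest part of the HOXA sum was Hoxa10, at a mean of 103.5 CPM in male and 231.9 CPM in female libraries. The lower HOXA sum was not shared by the whole cluster: of its 11 genes, 5 had positive and 6 negative log2 fold changes, male over female. HOXC averaged 228.8 ± 46.8 CPM in male and 233.9 ± 19.7 CPM in female libraries, and HOXD 138.0 ± 2.34 CPM in male and 139.97 ± 13.9 CPM in female libraries (SD, n = 3 each). For these clusters the sexes overlapped. As a share of all HOX counts, HOXB made up 16.3% ± 2.12 in male and 4.90% ± 0.267 in female libraries, and HOXA 40.6% ± 3.69 in male and 56.6% ± 1.66 in female libraries (SD, n = 3 each). A change in the number of cells of a type and in the RNA per cell cannot be told apart in sorted bulk samples.

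**Figure D1:**
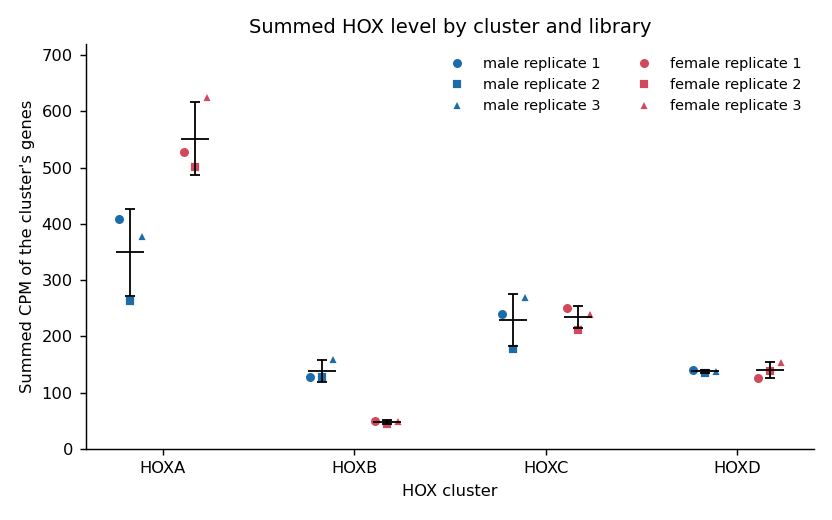
Summed CPM of the genes of each HOX cluster (vertical axis, linear) in each library, male left of female, with the mean and SD of 3 libraries in black. The 3 male HOXB sums lie between 127.2 and 160.3 CPM, above the 3 female sums of 43.7 to 49.7 CPM, while the HOXC and HOXD sums of the sexes overlap.

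Of the 38 genes, 33 passed the filter on low counts and were tested. No HOX gene passed the threshold of 0.05 on the adjusted p by edgeR's quasi-likelihood test, which called 1.23% of all 15227 genes, 0.841% as higher in male and 0.387% as lower. At an unadjusted p under 0.05, all 8 tested HOXB genes were higher in male (4.68% of all genes tested were), and Hoxa10 and Hoxa11 were lower (4.51% of all). In the same 8 HOXB genes every male library stood above every female library, which held for 6.47% of all genes tested. In Hoxa10 and Hoxa11 every male library stood below, as in 7.27% of all. By either count the lower genes were 2 of 33 tested HOX genes, near the share over all genes. Hoxb8 passed the filter on low counts only through its male libraries, whereas the 7 other tested HOXB genes reached its level in female libraries also. DESeq2 called 6 HOXB genes higher (2.24% of the genes it adjusted) and no HOX gene lower (1.71% of those genes): Hoxb2, Hoxb4, Hoxb5, Hoxb6, Hoxb8 and Hoxb9. limma-voom called none in either direction, against 0.972% of all genes higher and 0.453% lower. With replicate number as a further term in edgeR, 11 HOX genes were higher (13.1% of all genes tested) and 4 lower (14.2%). The number of HOX genes called therefore depends on whether that term is in the fit. The median log2 fold change, male over female, was 0.12 over the 33 tested HOX genes and -0.01 over all genes tested. By cluster it was -0.02 for HOXA, 1.73 for HOXB, -0.05 for HOXC and -0.08 for HOXD. For the 7 tested HOXB genes other than Hoxb8 it was 1.58. Without replicate 1 of both sexes the log2 fold changes were 1.97 for Hoxb5, 1.64 for Hoxb9 and -1.32 for Hoxa10, and without replicate 2 of both sexes they were 1.93, 1.52 and -1.15. No test of cluster B against the other clusters was run.

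**Figure D2:**
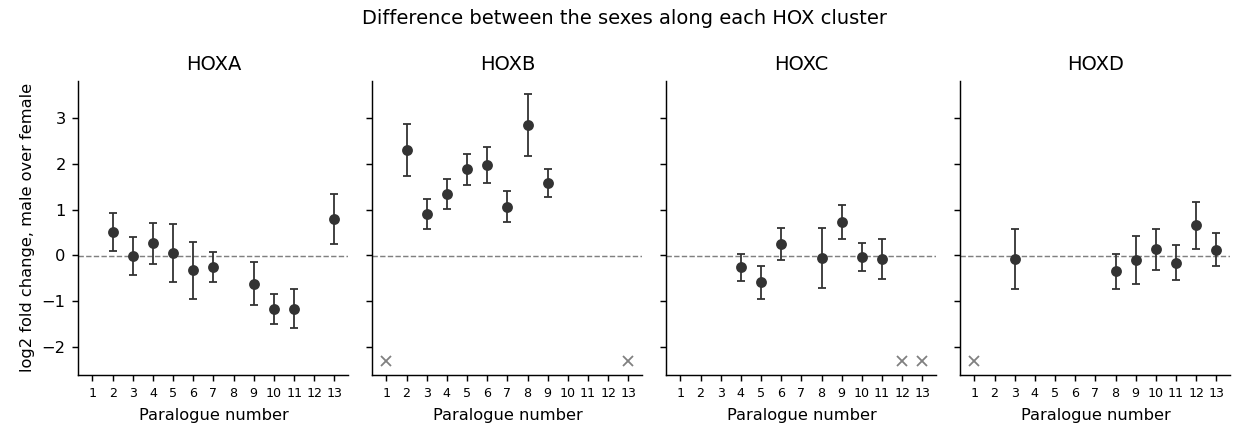
Log2 fold change, male over female, of the tested HOX genes by paralogue number (horizontal axis), with its standard error, in 1 panel per cluster; the dashed line is the median of all genes tested (-0.01), and grey crosses mark genes not tested. All 8 tested HOXB genes lie between 0.90 and 2.85, whereas the HOXC and HOXD genes lie between -0.58 and 0.73.

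The HOXB genes toward the head end of the cluster were low in female mesenchyme and higher in every male library. Hoxb1, which patterns the hindbrain, was near the limit of detection, with 24 counts in male and 2 in female libraries. Its count ratio was 12.4, with an exact 95% interval of 3.08 to 108.4 that covers counting error only, and it did not reach the filter. Hoxb2 (ENSMUSG00000075588), another hindbrain gene, had 4.09, 9.64 and 8.30 CPM in male replicates 1 to 3, against 0.955, 2.51 and 1.04 CPM in female replicates 1 to 3. Hoxb3 (ENSMUSG00000048763), which acts in the hindbrain and pharyngeal organs, had 16.9, 12.6 and 13.3 CPM in male libraries, against 8.19, 6.98 and 7.72 CPM in female libraries. In both genes the lowest male library lay above the highest female library, by 1.63 times for Hoxb2 and 1.54 times for Hoxb3. Their log2 fold changes were 2.29 (SE 0.57, edgeR adjusted p = 0.157) and 0.90 (SE 0.32, edgeR adjusted p = 0.373). Both share exon bases with the antisense gene Hoxb3os in the reference, and without strand information reads over the shared bases cannot be told apart. Hoxb3os itself had 23.6 ± 6.03 CPM in male and 11.5 ± 3.85 CPM in female libraries (SD, n = 3 each).

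In the middle of the cluster every male library again stood above every female library, and Hoxb5 had the smallest p of all HOX genes. Hoxb5 (ENSMUSG00000038700), known in the mouse for lung and enteric nerve development, had 9.64, 9.44 and 12.8 CPM in male libraries, against 3.01, 2.80 and 2.84 CPM in female libraries. Hoxb6 (ENSMUSG00000000690), expressed in lateral mesoderm, had 30.1, 26.8 and 40.1 CPM in male libraries, against 10.2, 5.46 and 9.08 CPM in female libraries. The lowest male library was 3.13 times the highest female library for Hoxb5 and 2.63 times for Hoxb6. The log2 fold changes were 1.88 (SE 0.33, edgeR adjusted p = 0.0566) and 1.97 (SE 0.39, edgeR adjusted p = 0.0717). Hoxb5 passed in 6 and Hoxb6 in 4 of 20 alternative settings, in both cases counting a looser adjusted p threshold of 0.1. Hoxb4 (ENSMUSG00000038692), a gene of cervical vertebra identity also used in blood stem cells, had 20.5, 17.6 and 25.997 CPM in male libraries, against 8.56, 7.57 and 9.36 CPM in female libraries. Hoxb7 (ENSMUSG00000038721), expressed in duct epithelium of the kidney among other sites, had 9.64, 9.05 and 12.8 CPM in male libraries, against 4.81, 5.46 and 4.76 CPM in female libraries. The groups did not overlap in either gene, and the log2 fold changes were 1.33 (SE 0.33, edgeR adjusted p = 0.147) and 1.06 (SE 0.33, edgeR adjusted p = 0.272).

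Hoxb8 and Hoxb9, next to each other in the cluster, lay far apart in level. Hoxb9 (ENSMUSG00000020875), which patterns the thoracic skeleton and had the highest mean of the cluster per kb of transcript over all 6 libraries, had 36.2, 40.6 and 45.1 CPM in male libraries, against 13.6, 12.7 and 14.6 CPM in female libraries. Hoxb8 (ENSMUSG00000056648), known for roles in vertebra identity and in blood-derived cells of the mouse, had 0.688, 1.04 and 1.39 CPM in male libraries, against 0.0367, 0.148 and 0.240 CPM in female libraries. Both stood higher in every male library, and Hoxb8 was far below its neighbours in level in both sexes. The log2 fold changes were 1.58 for Hoxb9 (SE 0.30, edgeR adjusted p = 0.0655) and 2.85 for Hoxb8 (SE 0.68, edgeR adjusted p = 0.140). Hoxb8 rests on 72 male and 10 female counts and reached the filter level of 0.420 CPM only in male libraries, so it could be tested only through the sex in which it was high. The 7 other tested HOXB genes reached it in all 6 libraries. Hoxb13, a gene of the tail end and the prostate, had 1 count in 1 male library and none elsewhere. In the reference Hoxb4, Hoxb6, Hoxb7, Hoxb8 and Hoxb9 share no exon bases with any other gene.

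**Figure D3:**
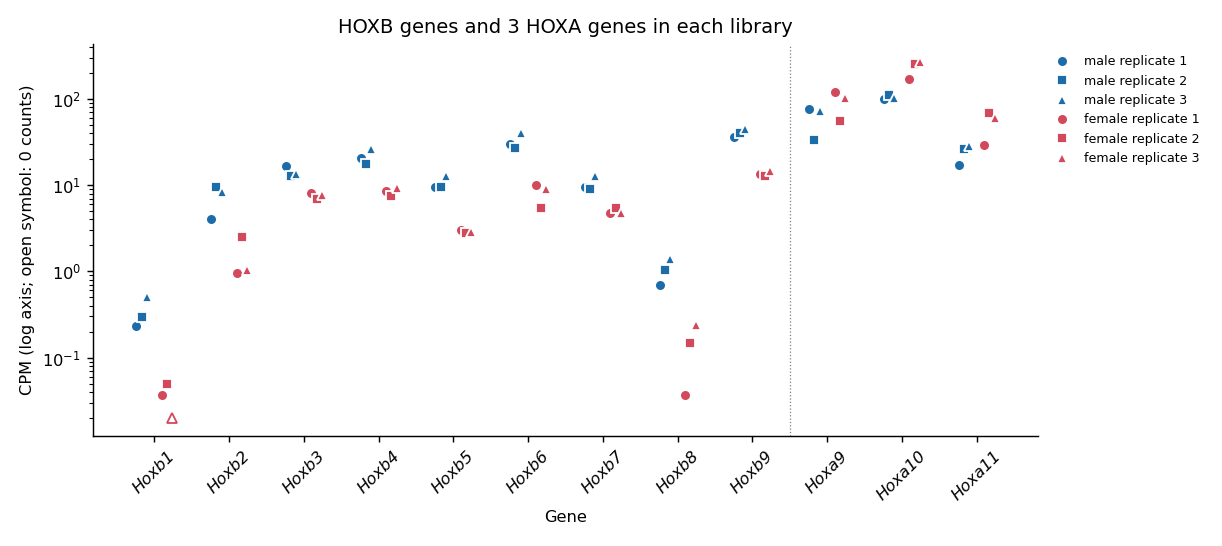
CPM of 9 HOXB genes and 3 HOXA genes in each library (log axis), male left of female; the open symbol at the bottom marks a library with 0 counts. In Hoxb1 to Hoxb9 every male library lies above every female library, in Hoxa10 and Hoxa11 every male library lies below, and in Hoxa9 the sexes overlap.

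Markers of other cells also differed between these libraries. The summed level of 9 Sertoli cell markers was 72.6 to 117.0 CPM in male and 19.2 to 23.6 CPM in female libraries, and 3 of 7 tested members, Amh, Sox9 and Cst9, were higher past the threshold (of all genes tested 0.841% were higher and 0.387% lower, here and in the lists below). The 7 neuron and Schwann cell markers summed to 67.9 to 76.8 CPM in male and 15.3 to 30.8 CPM in female libraries, most of it Stmn2 in male, which was higher past the threshold. The 6 endothelial markers summed to 141.0 to 327.6 CPM in male and 47.3 to 93.4 CPM in female libraries, most of it Kdr. The other members averaged at most 3.52 CPM in either sex. None of 5 tested members was past the threshold. Of the 5, 4 had positive log2 fold changes, male over female, from 0.30 for Emcn to 1.65 for Kdr. Pecam1 went the other way, at -0.398, and Cldn5, not tested, averaged 0.197 CPM in male and 0.416 CPM in female libraries. Kidney markers summed to 59.7 to 102.7 CPM in male and 119.4 to 200.9 CPM in female libraries, most of it Sall1, with 1 of 4 tested members, Gdnf, higher past the threshold and Six2 at 0.0165 CPM in male and 0.108 CPM in female libraries. Pregranulosa markers summed to 307.0 to 562.1 CPM in male and 122.5 to 215.5 CPM in female libraries, most of it Wnt4, which is also a duct gene, with none of 7 tested members past the threshold and Foxl2 at 1.88 CPM in male and 9.54 CPM in female libraries. Mesothelium markers summed to 516.4 to 622.1 CPM in male and 588.5 to 801.0 CPM in female libraries, duct epithelium markers to 125.9 to 388.0 CPM in male and 170.1 to 568.3 CPM in female libraries, and blood markers to 11.04 to 17.8 CPM in male and 9.19 to 13.5 CPM in female libraries. Of the 7 tested epithelial markers 1, Epcam, was lower past the threshold, at 2.58 CPM in male and 13.69 CPM in female libraries. Log2 fold changes were negative in 5 of the 7 and positive in 2, Cdh1 at 0.19 and Wnt7a at 0.63. In every tested epithelial marker but Epcam the sexes overlapped. Fetal Leydig markers summed to 2.42 to 6.999 CPM in male and 5.48 to 9.11 CPM in female libraries. Genes of caudal and hindlimb mesenchyme summed to 88.5 to 359.4 CPM in male and 103.2 to 344.9 CPM in female libraries, almost all of it Prrx1. In that list Pitx1, Isl1, Lmx1b and Tbx5 averaged at most 0.195 CPM in either sex. No member of any marker list was at 0 counts in every library. The part of these cells in the HOX differences was not tested.

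In cluster A a pair of genes near the tail end stood lower in every male library. Hoxa2 to Hoxa7, with roles from the pharyngeal arches (Hoxa2, Hoxa3) to the lung (Hoxa5), had log2 fold changes between -0.33 and 0.51, and the sexes overlapped in all 6.

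Hoxa10 and Hoxa11 were lower in every male library than in any female library. Hoxa10 (ENSMUSG00000000938), required for normal uterine identity and function in the mouse, had 98.8, 110.2 and 101.5 CPM in male libraries, against 168.4, 257.4 and 269.9 CPM in female libraries. Hoxa11 (ENSMUSG00000038210), which acts in uterus, kidney and forearm, had 17.2, 26.2 and 28.1 CPM in male libraries, against 29.6, 69.3 and 60.7 CPM in female libraries. The lowest female library was 1.53 times the highest male library for Hoxa10 and only 1.05 times for Hoxa11. Their log2 fold changes were both -1.16 (SE 0.33, edgeR adjusted p = 0.209, and SE 0.43, edgeR adjusted p = 0.429). Hoxa11 shares exon bases with Hoxa11os on the opposite strand, which had 22.1 ± 10.9 CPM in male and 39.9 ± 22.6 CPM in female libraries (SD, n = 3 each). With an offset for transcript GC content and length, under which 3.04% of all genes were higher and 2.93% lower past the threshold, 4 HOXB genes were higher (Hoxb2, Hoxb5, Hoxb8 and Hoxb9) and Hoxa10 and Hoxa11 lower, at -1.25 (edgeR adjusted p = 0.0330) for Hoxa10 and -1.28 (edgeR adjusted p = 0.0210) for Hoxa11. Hoxa9 (ENSMUSG00000038227), an oviduct gene, had 77.3, 33.1 and 71.9 CPM in male libraries, against 121.6, 55.7 and 102.2 CPM in female libraries. Hoxa13 (ENSMUSG00000038203), which the caudal end of the duct and the digits require, had 3.06, 0.890 and 1.39 CPM in male libraries, against 0.918, 1.13 and 1.04 CPM in female libraries. In both the sexes overlapped, with log2 fold changes of -0.62 (SE 0.47) and 0.79 (SE 0.54). With replicate number as a further term Hoxa9 was lower past the threshold (edgeR adjusted p = 0.00295), as were 14.2% of all genes. Hoxa13 did not pass there (edgeR adjusted p = 0.182).

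In clusters C and D the sexes overlapped in every gene with counts. Among the 7 tested HOXC genes the log2 fold changes ran from -0.58 for Hoxc5 to 0.73 for Hoxc9, a thoracic patterning gene, which had 27.8 ± 8.83 CPM in male and 16.7 ± 2.83 CPM in female libraries (SD, n = 3 each). Hoxc6, used in brachial motor neurons and with the highest mean of its cluster per kb, had 63.6, 45.5 and 72.4 CPM in male libraries, against 61.1, 38.01 and 53.2 CPM in female libraries, at a log2 fold change of 0.25 (SE 0.35). Hoxc4, Hoxc5, Hoxc10 and Hoxc11, which pattern neck, spine and hindlimb, had log2 fold changes of -0.26, -0.58, -0.03 and -0.07, and Hoxc5 and Hoxc10 share 166 exon bases, where their reads cannot be told apart. Hoxc12 had no count in any library and Hoxc13, a hair follicle gene, had 6 counts in male and 5 in female libraries. Among the 7 tested HOXD genes the log2 fold changes ran from -0.35 for Hoxd8 to 0.66 for Hoxd12. Hoxd11, which acts with Hoxa11 in kidney and forearm, had 30.4, 19.4 and 15.2 CPM in male libraries, against 22.6, 20.8 and 29.1 CPM in female libraries, at a log2 fold change of -0.16 (SE 0.38). Hoxd12 and Hoxd13, genes of digits and the genital tubercle, differed in level: Hoxd12 averaged 16.9 ± 7.93 CPM in male and 10.7 ± 4.70 CPM in female libraries, and Hoxd13 5.47 ± 0.557 CPM in male and 5.04 ± 1.43 CPM in female libraries (SD, n = 3 each). Hoxd3, which shares 388 exon bases with Hoxd4, averaged 13.5 ± 7.86 CPM in male and 14.3 ± 9.03 CPM in female libraries, and Hoxd10 averaged 23.7 ± 9.13 CPM in male and 21.6 ± 7.67 CPM in female libraries (SD, n = 3 each). Hoxd1 had 13 counts in male and 21 in female libraries and was not tested.

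Levels of different genes were compared per kb of the longest coding transcript. Over all 6 libraries Hoxa10 came first at 65.4 ± 30.7 CPM per kb, then Hoxa6 at 42.6 ± 22.6, Hoxc6 at 35.2 ± 7.98, Hoxa5 at 25.7 ± 12.1 and Hoxa7 at 24.9 ± 4.70 CPM per kb (SD, n = 6). Neighbours in this order overlapped over the libraries, and in male libraries Hoxc6 stood above Hoxa6, at 38.3 and 37.7 CPM per kb. The highest in cluster B was Hoxb9 at 10.5 ± 5.86 CPM per kb, close to Hoxb6 at 10.3 ± 7.13 (SD, n = 6). Hoxb6 stood above Hoxb9 in male libraries, at 16.5 and 15.8 CPM per kb, and below it in female libraries, at 4.19 and 5.29 CPM per kb. In cluster D the highest was Hoxd11 at 20.6 ± 5.27 CPM per kb, beside Hoxd9 at 19.1 ± 7.70 (SD, n = 6). The order depends on the transcript taken: per kb of all merged exons Hoxc6 had 23.1 CPM per kb, below Hoxa5 at 25.7, and Hoxa7 had 17.4, below Hoxd9 at 19.1, while Hoxd11 had 5.44 and Hoxd9 led cluster D. In cluster B the libraries of Hoxb8 lay wholly below those of Hoxb2, the next above it in that order, and the other neighbours overlapped. Expression reached paralogue number 13, where Hoxd13 had 2.20 CPM per kb in male and 2.03 in female libraries, while Hoxb1, Hoxd1, Hoxb13, Hoxc12 and Hoxc13 were at most 0.165 CPM per kb in either sex.

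**Figure D4:**
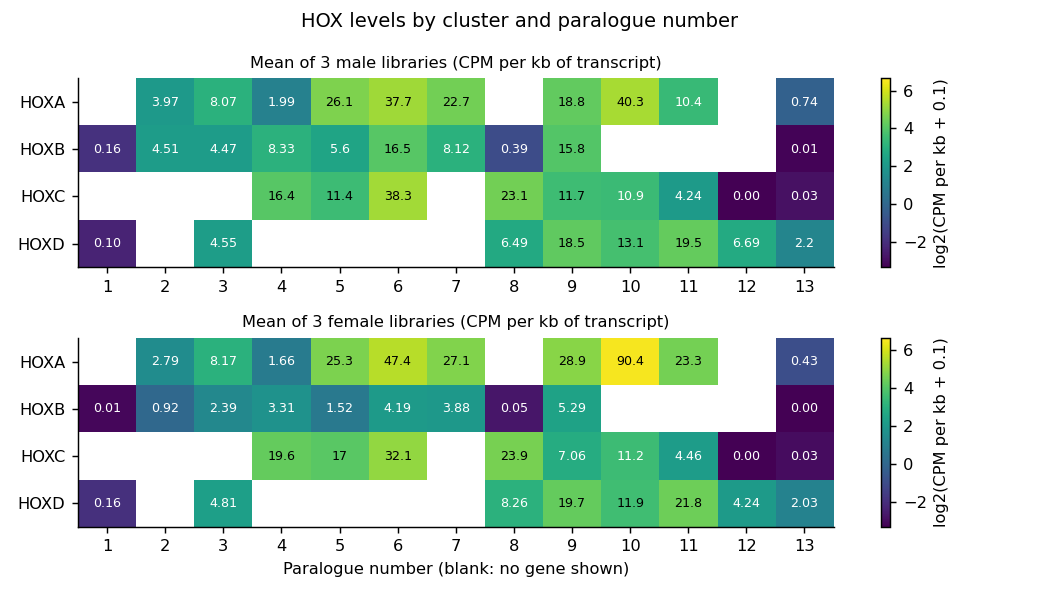
Mean CPM per kb of transcript of the HOX genes by cluster (rows) and paralogue number (columns), for the 3 male libraries above and the 3 female libraries below; colour is log2(CPM per kb + 0.1), and blank cells show no gene. The brightest cell is Hoxa10 in female libraries, at 90.4 CPM per kb against 40.3 in male libraries, and the HOXB row is brighter in male libraries.

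The HOXB genes were also set against their paralogues in the other clusters. A gene's share of the summed CPM per kb of its paralogue group is taken within a library, so library scaling does not enter it. In group 7 Hoxb7 held 26.4%, 27.8% and 25.4% in male libraries, against 13.5%, 13.2% and 11.1% in female libraries, the rest being Hoxa7. In group 9 Hoxb9 held 25.5%, 25.7% and 22.6% in male libraries, against 8.85%, 8.32% and 8.88% in female libraries. In group 4, without Hoxd4, Hoxb4 held 31.1% ± 2.16 in male and 13.5% ± 1.28 in female libraries (SD, n = 3 each). For Hoxb5 the shares were 14.1% ± 5.05 in male and 3.54% ± 0.594 in female libraries, and for Hoxb6 they were 18.9% ± 5.52 in male and 5.14% ± 0.506 in female libraries (SD, n = 3 each). Hoxb8 stayed a minor member of its group, at 1.78% ± 1.31 in male and 0.203% ± 0.1504 in female libraries (SD, n = 3 each). The shares did not overlap between the sexes for these 6 genes, nor for Hoxb1 at its few counts. For Hoxb2 and Hoxb3 they did: Hoxb2 held 35.2% to 71.7% in male and 16.2% to 40.1% in female libraries, and Hoxb3 22.0% to 33.7% in male and 12.6% to 22.504% in female libraries. In group 10, which has no HOXB gene, Hoxa10 held 63.0% ± 7.06 in male and 79.1% ± 6.41 in female libraries (SD, n = 3 each), and the rest was Hoxc10 and Hoxd10.

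**Figure D5:**
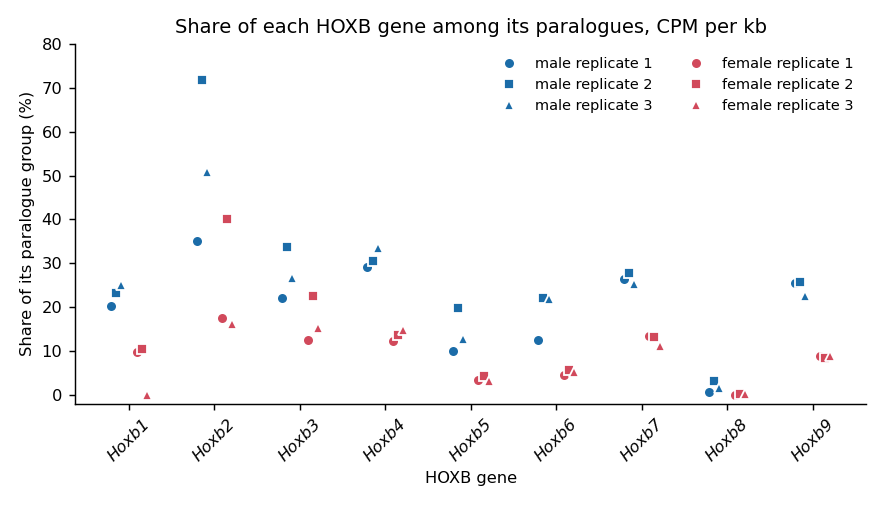
Share of each HOXB gene in the summed CPM per kb of its paralogue group (vertical axis, percent) in each library, male left of female. For Hoxb1 and for Hoxb4 to Hoxb9 the 3 male libraries lie above the 3 female libraries; Hoxb2 and Hoxb3 overlap.

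The HOX genes also differed in how far libraries of the same sex spread. Hoxc8, a gene of thoracic vertebrae and motor neurons, had 66.9, 13.99 and 48.4 CPM in male replicates 1 to 3, against 66.1, 21.7 and 46.1 CPM in female replicates 1 to 3. Hoxa5 had 70.0, 17.4 and 59.7 CPM in male replicates 1 to 3, against 63.9, 21.7 and 56.8 CPM in female replicates 1 to 3. In both genes replicate 2 was the lowest library of each sex. The reverse held for Hoxd9, a gene of the lower spine and limb, with 19.7, 51.0 and 47.6 CPM in male and 22.9, 61.6 and 41.8 CPM in female replicates 1 to 3. The log2 ratio of replicate 1 to replicate 2 correlated between the sexes over the 33 tested HOX genes at 0.82 (Pearson), and passed 1 in size in both sexes for 8 of them. Against transcript GC content that ratio correlated at -0.36 in male and -0.16 in female libraries. These are descriptions over genes of the same libraries. Hoxb3, Hoxb4, Hoxb5, Hoxb7 and Hoxb9 were among the steady genes, with log2 ratios between -0.18 and 0.42 in both sexes. The other tested HOXB genes spread further. The ratio was -1.24 in male and -1.39 in female libraries for Hoxb2, 0.17 and 0.90 for Hoxb6, and -0.59 and -2.01 for Hoxb8 at its few counts.

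Genes known to act with or upstream of the HOX genes were read in the same test. Of 9 cofactor genes of the TALE class, whose products bind DNA beside HOX proteins, all 9 were tested and none passed. Meis3 had the smallest p, with 61.9 ± 24.2 CPM in male and 29.7 ± 11.6 CPM in female libraries (SD, n = 3 each; log2 fold change 1.06, SE 0.46, edgeR adjusted p = 0.576). The median of the list was 0.34. Of 24 Polycomb, trithorax and related chromatin genes, all were tested, none passed and the median was -0.23. Cbx7, a Polycomb reader of methylated histones, had the smallest p, with 6.48 ± 0.358 CPM in male and 15.3 ± 2.27 CPM in female libraries (SD, n = 3 each; log2 fold change -1.24, SE 0.32, edgeR adjusted p = 0.162). Of 15 upstream regulators 11 were tested and none passed, with a median of 0.05. In that list Rarb, a retinoic acid receptor gene that retinoic acid itself induces, had 103.4 ± 47.7 CPM in male and 40.2 ± 13.5 CPM in female libraries (log2 fold change 1.36, SE 0.47, edgeR adjusted p = 0.367), and the caudal gene Cdx2 had no count in any library.

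Among 18 genes of duct formation and patterning 14 were tested, 1 was higher in male (0.841% of all genes tested were), none was lower (0.387% of all) and the median was 0.62. The gene past the threshold was Msx2, a homeobox gene, at 209.6 ± 50.7 CPM in male and 2.37 ± 0.683 CPM in female libraries (SD, n = 3 each; log2 fold change 6.47, SE 0.46, edgeR adjusted p = 0.00910). Of the genes that flank the clusters 5 of 9 were tested, none passed and the median was 0.02. Skap2, which flanks the head end of cluster A, had the smallest p, with 6.28 ± 0.550 CPM in male and 3.32 ± 0.611 CPM in female libraries (log2 fold change 0.92, SE 0.34, edgeR adjusted p = 0.424). Skap1, which flanks cluster B, averaged 0.157 CPM in male and 0.278 CPM in female libraries and was not tested. Of 9 antisense and long non-coding RNA genes within the clusters 7 were tested and none passed, with a median of 0.23. The member with the smallest p was Hotairm1 in cluster A, which had 3.10 ± 0.801 CPM in male and 0.869 ± 0.202 CPM in female libraries (SD, n = 3 each; log2 fold change 1.83, SE 0.42, edgeR adjusted p = 0.118). In cluster B Hoxb5os had 3.46 ± 0.457 CPM in male and 1.54 ± 0.513 CPM in female libraries (SD, n = 3 each), and it shares exon bases with Hoxb5.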

How the data were processed

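The authors deposited unnormalised counts by Ensembl gene identifier, and 5 closing lines of each library, which stand for no gene, were left out. The submitters' processing notes name TopHat, HTSeq and DESeq, and mm9 as the build; their versions, the annotation release and the strand setting were not given in the sources used here. Per the labels' protocols, TruSeq v2 libraries, which carry no strand information, were read in pairs of 76 bases. Counts outside annotated genes made up 3.53% to 18.2%, and counts on more than 1 gene 6.51% to 10.03%, of the uniquely placed counts of a library.

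Gene symbols (32919 of 37991), transcript lengths and exon overlaps came from GENCODE M21 (GRCm38), which is not the authors' build, so no coordinates are given for the counted genes; those of the promoter windows are RefSeq's on GRCm38.p6. In R 4.3.3, genes were kept by filterByExpr by sex (minimum count 10) and scaled by TMM. The 15227 genes kept were tested by the two-sided robust quasi-likelihood test of edgeR 4.0.16 on all 6 libraries, with sex as the only term. Calls use a Benjamini-Hochberg adjusted p under 0.05 across those genes. Log2 fold changes are male over female, and standard errors are the fold change over the square root of F. Alternatives were DESeq2 1.42.0, limma 3.58.1 (voom), other scalings and filters, and a GC and length offset. Others were a replicate block, an adjusted p threshold of 0.1 and leaving out libraries. The offset used splines with 5 degrees of freedom, and all 38 HOX genes had a GC value.

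Members, lists and alternatives were chosen with earlier results of these data known. Some genes are not reported here by name, though counts and sums over a cluster or list include them. Of the others, values in every library are given for those among the 10 tested HOX genes with the smallest p, the highest per kb in each cluster, Hoxa9, Hoxa10, Hoxa11 and Hoxa13, and genes whose sexes do not overlap; Hoxa5, Hoxc8 and Hoxd9 were picked after their values were seen. Of a related list, the members past the threshold or the smallest p are named; Hoxb3os, Hoxb5os, Hoxa11os, Skap1 and Cdx2 were added after their values were seen. The labels call the replicates biological. With 3 libraries per sex the number limits the precision, and the count interval covers counting error only.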

Additional observations from a re-analysis of the deposited data

Results flagged for a closer look

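Counts that the gene test does not use were present in every library. Counts outside annotated genes made up 3.53% of the uniquely placed counts in the lowest library and 18.2% in the highest, while ambiguous counts, shared by genes, made up 6.51% and 10.03%. The share outside genes was highest in replicate 1 of each sex, at 18.2% in male and 17.5% in female. It was lowest in replicate 2 of each sex, at 5.45% in male and 3.53% in female. With no control library the comparison is with a count of 0 only, which any such share passes.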

How the results depend on the processing

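All 8 tested HOXB genes kept positive log2 fold changes in all 20 alternatives. The adjusted p threshold of 0.1 is among the 20 and has the fold changes of the main fit, so no sign could change there. Under RLE, upper quartile and library size scaling 9 HOXB genes stood higher in every male library. With the GC and length offset 7 did, counting Hoxb1, which was not tested and to which the offset was not applied. No HOX gene passed, in either direction, under those 3 scalings, with no filter or by limma-voom. With at least 10 counts in every library of a sex 1 HOX gene was higher (1.19% of all genes), at an adjusted p threshold of 0.1 4 were higher (1.58%), and by DESeq2 7 (2.24%). With the GC and length offset 5 were higher (3.04% of all genes) and 2 lower (2.93%). The main fit did not take the replicate numbers to pair the samples. The deviations correlated between the sexes for only 2 of the 3 numbers, but this cannot decide pairing. Deviations within a sex cancel by construction, so a replicate 3 near its sex mean can correlate weakly whether paired or not. With a replicate block 11 HOX genes were higher (13.1% of all genes) and 4 lower (14.2%). With that block and the offset 11 were higher (13.6% of all genes) and 8 lower (15.4%).

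Over all genes, 128 were higher and 59 lower in male, so 68.4% of calls were higher. DESeq2 gave 409 and 312 (56.7%), the offset 463 and 446 (50.9%), the replicate block 1997 and 2167 (48.0%), both together 2069 and 2350 (46.8%), and the threshold of 0.1 241 and 145. With libraries or replicate numbers left out no HOX gene passed, while the calls over all genes, few or none in most of these fits, ranged from 0 to 225 higher and from 0 to 129 lower: 0 and 0 without male replicate 3, female replicate 3, replicate 2 or replicate 3 of both sexes, 6 and 1 without male replicate 2, 11 and 3 without female replicate 1, 3 and 2 without female replicate 2, and 141 and 32 without male replicate 1. The log2 fold change of Hoxd11 ranged from -0.49 to 0.045 with 1 library left out, positive without male replicate 3, and from -0.54 to 0.18 with a replicate number left out, positive without replicate 3 of both sexes. Of 300 values of 15 named HOX genes over the alternatives, 43 passed the threshold of their setting, which was 0.05 or 0.1. The sign changed in 2 of the 300, both Hoxd11. Leaving out a replicate number of both sexes, and counting HOXB genes that stood higher in every male library under these settings, were added after seeing the data. The cause of these changes was not tested.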
